A study of Mus musculus with 16 samples.

Results

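The genes described here are 275 mouse genes whose symbol is Zfp followed by a number, a naming series of mouse zinc finger protein genes. They were chosen by symbol. Of 337 such symbols in the table of raw counts, 277 are rows of the deposited normalized table. Of these, Zfp36 and Zfp872 were left out by name. The raw count table holds 24421 genes in all. The rule used the name and the row filter of the normalized table, not a difference between groups. It was set with earlier results of these data known.

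Bulk RNA-seq was made of conventional type 1 dendritic cells (cDC1s), which present antigen to CD8 T cells and were sorted here from the spleen of C57BL6 mice at steady state. The 16 libraries comprise 4 of mature and 4 of immature cDC1s from Xbp1fl mice, and 4 of each stage from Xbp1flIre1fl mice. All of these mice carried a floxed Xbp1 gene, and the Xbp1flIre1fl mice also carried a floxed gene for IRE1. The labels call both genotypes wild type in function, since no floxed gene was deleted, and the mature cells had matured without infection. Whether each library stands for its own mouse is not in the labels, so a p-value measures only how these libraries vary. In bulk RNA, fewer cells of a type and less RNA per cell cannot be told apart.

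Most Zfp proteins carry C2H2 zinc fingers, short loops in which cysteines and histidines hold a zinc ion and whose tip reads bases of DNA, or in some members binds RNA or protein. Many also carry a KRAB domain, which recruits the corepressor TRIM28 and, through it, the histone methyltransferase SETDB1 and heterochromatin proteins, and these KRAB zinc finger proteins are known for silencing retroelements. The rest include activators, repressors without KRAB, splicing and ribosome factors, and genes with roles in lymphocytes and dendritic cells.

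Of the 275 genes, 273 had a coding transcript in GENCODE M21, the annotation of the mm10 build (GRCm38) used for all positions here. The median number of fingers matching the C2H2 pattern was 10. Zfp142 had the most with 36, and Zfp330, Zfp365, Zfp703, Zfp839 and Zfp935 had 0 by this pattern. A KRAB pattern was found in 144 members and not in 129, and a member without a match may still carry a diverged domain. Chromosomes 7, 17 and 13 held 75, 33 and 29 of the members, or 137 in all.

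The DNA that encodes 1 finger and the linker after it is shown for 4 members on which the results turn, since it is the part of the gene that the family shares. These are Zfp467 (chr6:48439072-48439149, minus strand), Zfp282 (chr6:47905010-47905087, plus strand), Zfp809 (chr9:22238851-22238928, plus strand) and Zfp951 (chr5:104815090-104815167, minus strand), each of 78 bases in the coding sequence, from the GRCm38 genome by the GENCODE model. They are written 5′ to 3′ on the coding strand, and capitals mark the codons of the zinc-binding cysteines and histidines.
Zfp467: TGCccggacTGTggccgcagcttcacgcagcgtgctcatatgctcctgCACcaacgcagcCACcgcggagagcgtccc
Zfp282: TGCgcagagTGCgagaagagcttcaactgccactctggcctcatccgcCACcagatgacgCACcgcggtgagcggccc
Zfp809: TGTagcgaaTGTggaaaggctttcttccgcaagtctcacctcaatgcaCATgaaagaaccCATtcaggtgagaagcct
Zfp951: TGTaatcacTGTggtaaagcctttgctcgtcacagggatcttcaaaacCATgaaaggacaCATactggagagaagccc

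Libraries held 13948232 to 17000763 counts, and 3 counts, taken as the floor where a gene has none, were worth 0.176 to 0.215 counts per 1000000 counts (CPM). The sorted cells carried the transcripts that define cDC1s, with a summed level of 17 such genes of 8901 to 12541 CPM in mature libraries and 12783 to 14284 CPM in immature ones. Of these genes 10 fell in mature cells, 4 rose and 3 did not pass, with a median log2 fold change of -0.34. Ccr7, the chemokine receptor of mature dendritic cells, stood at 4988 to 13425 CPM in the mature and 107 to 320 CPM in the immature libraries. Markers of other cells also moved with stage. All 11 B cell markers rose, from a summed 117 to 181 CPM in immature to 340 to 1181 CPM in mature libraries, with Cd79a and Ms4a1 above 0 in both stages. Of the macrophage markers, 8 of 11 rose, from 175 to 702 CPM to 595 to 1244 CPM. The T cell list rose in 6 of 9 (34.0 to 54.8 CPM against 55.5 to 103 CPM) and the cDC2 list in 5 of 9 genes tested (230 to 281 CPM against 339 to 504 CPM). Among plasma cell markers 4 of 6 rose and 1 fell. Not all lists rose: of 7 NK cell genes tested 0 rose and 1, Klrk1, fell (120 to 169 CPM against 64.7 to 111 CPM for the list). Of 7 neutrophil genes tested 0 rose and 1 fell, and of 7 plasmacytoid dendritic cell genes 1 rose and 1 fell. The 2 erythroid genes tested did not pass. All 20 cell cycle genes fell, from 1991 to 2342 CPM to 996 to 1538 CPM. The part of these cells and of the cell cycle in the changes of the Zfp genes was not tested.

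Zfp transcripts were of low abundance. Their median level was 6.2 CPM (lowest 0.339, highest 225), against 22.2 CPM over the 11978 genes tested. Together they took 0.366% to 0.427% of the counts of mature libraries and 0.434% to 0.488% of those of immature libraries. After scaling of the libraries by TMM, which sets the bulk of genes level between libraries, their summed level was 3924 to 4454 CPM in mature libraries and 4010 to 4366 CPM in immature ones, so that the ranges overlapped.

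Per kilobase of exon, which allows levels of different genes to be compared, the highest was Zfp706, a repressor known from embryonic stem cells, at 45.2 ± 7.32 CPM per kb (SD, n = 16). Zfp366, which encodes DC-SCRIPT, a corepressor named for its expression in dendritic cells, followed at 33.2 ± 4.58 CPM per kb. Then came Zfp869 (22.2 ± 2.57), Zfp207 (21.4 ± 1.49), Zfp513 (20.4 ± 8.13) and Zfp263 (19.5 ± 2.66). These means pool the stages. Zfp706 and Zfp366 were first and second in each stage. In mature cells these genes did not differ beyond their spread, at 38.6 ± 2.83 and 36.5 ± 3.35 CPM per kb (SD, n = 8). Zfp513 had rank 3 in mature cells at 27.7 ± 4.21 CPM per kb (SD, n = 8) and rank 12 in immature cells at 13.1 ± 1.11. Within immature cells Zfp207, Zfp263 and Zfp869 did not differ beyond their spread (21.6 ± 1.67, 20.8 ± 1.72 and 20.5 ± 1.86 CPM per kb). Zfp706 shared 38.9% of its 50-base runs with other genes, most with Gm10193, so that its level depends on how the authors counted shared reads.

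The members near the filter on low values overlapped on both sides of it. Inside the normalized table the lowest were Zfp658, Zfp184 and Zfp273 at 0.339, 0.376 and 0.401 CPM. Among the 60 Zfp symbols outside it, 16 had no count in any library, and the highest were Zfp105, Zfp931 and Zfp773 at 0.555, 0.501 and 0.471 CPM. The members entered in the test numbered 271, since Zfp57, Zfp72, Zfp273 and Zfp658 had too few counts. Zfp57, a KRAB protein that guards imprints, had at most 0.683 CPM in any library and no count in 1.

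The first comparison asks which Zfp genes differed between mature and immature cDC1s as the mean of both genotypes. Of the 271 members tested, 126 were called at an adjusted p under 0.05 (edgeR), which is 46.5% of them against 67.6% of all genes tested. The calls went both ways: 65 members rose (24.0%, against 33.4% of all genes) and 61 fell (22.5%, against 34.2%). Changes over 2-fold were called in 11 (4.06%, against 13.8% of all genes), all of them upward. Over all genes, too, most such changes were upward (12.3% higher and 1.45% lower). In 30 members the 8 mature and 8 immature libraries did not overlap (11.1%, against 33.0% of all genes), 16 of them higher and 14 lower in mature cells. The median log2 fold change was -0.04 over the members and -0.01 over all genes tested, and the median size of the change was 0.31 and 0.37 on the log2 scale. The median standard error (SE) was 0.13 for the members and 0.09 for all genes.

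This split depended on how the libraries were scaled. With upper quartile scaling, which moved the median of all genes by -0.12 on the log2 scale, 44 members were higher and 90 lower (49.4% called, against 70.5% of all genes). With library sizes alone, which moved it by -0.22, the counts were 31 and 113 (53.1%, against 73.5%). DESeq2 gave 65 and 59 (45.8%, against 56.6% of all genes). It was run without the filter on low counts, so its set of all genes may not be the same. Of the 126 called members, 105 kept call and sign under upper quartile scaling, 92 with library sizes alone and 124 with DESeq2. The sign turned in none of them under upper quartile scaling or DESeq2, and in 8 with library sizes alone.

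**Figure D1:**
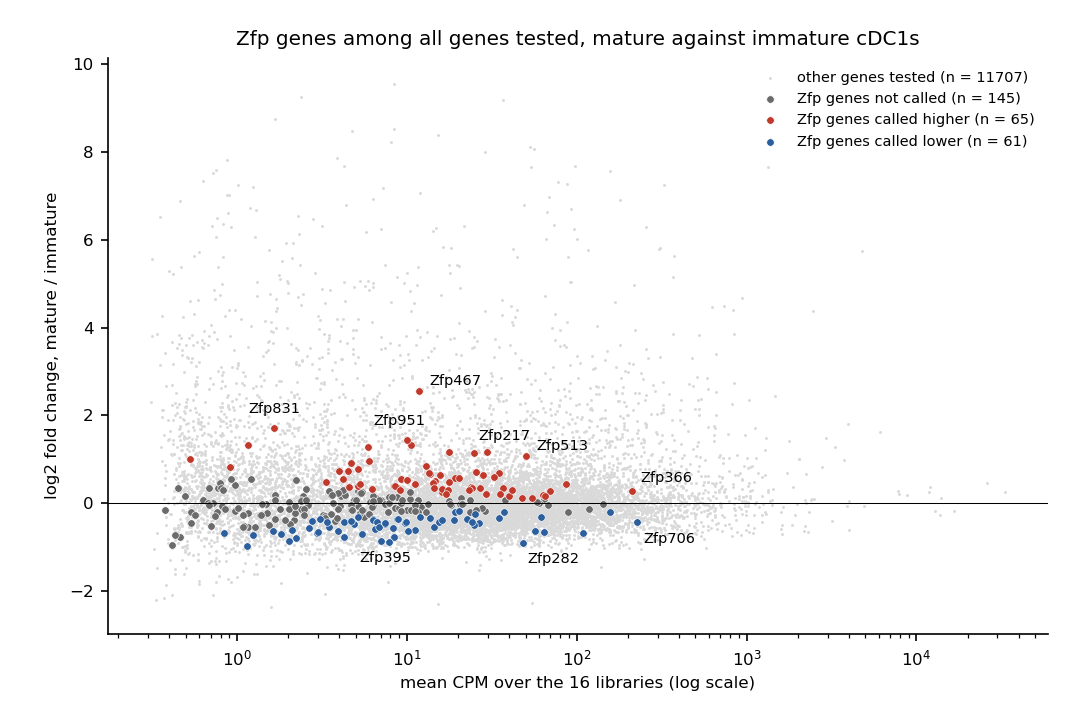
Log2 fold change of each gene between mature and immature cDC1s (vertical axis) against its mean CPM over the 16 libraries (horizontal log axis), for 271 Zfp genes (coloured) and 11707 other genes tested (light grey). The Zfp genes lie close to 0 and at low levels, with Zfp467 at 2.55 as the highest and no called member under -1.

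Over all genes tested the share called grew with level, and among the members it grew up to 50 CPM. Under 1 CPM, 10.3% of 29 members were called, against 42.4% of all genes in that band. Between 1 and 5 CPM it was 33.3% of 84 members against 52.8%, and between 5 and 20 CPM 55.4% of 101 against 68.3%. Between 20 and 50 CPM the shares were 70.3% of 37 members and 73.7% of all genes, and from 50 CPM upward 65.0% of 20 members and 76.6%. The members' share was thus below that of all genes in each of the 5 bands, by the least between 20 and 50 CPM.

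**Figure D2:**
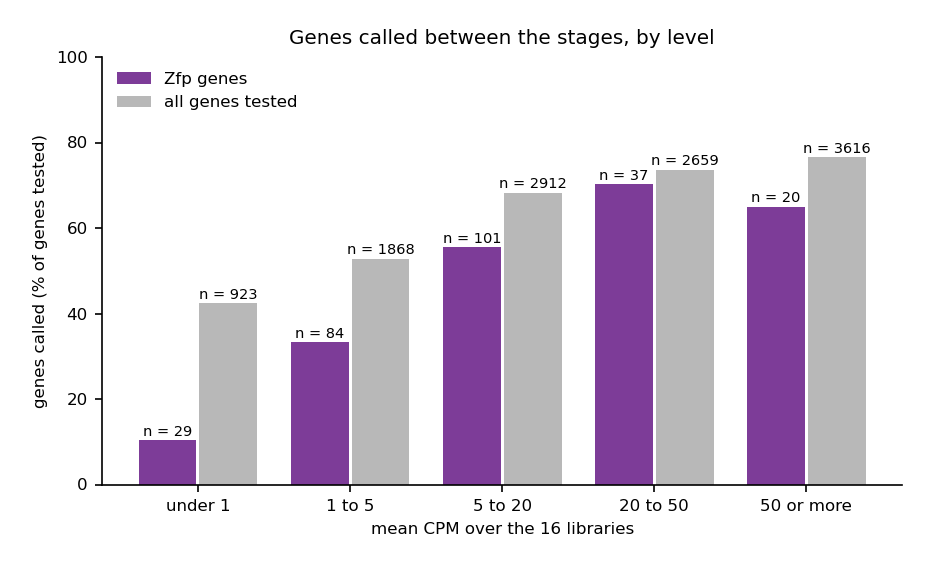
Share of genes called between the stages (vertical axis, percent of genes tested) in 5 bands of mean CPM (horizontal axis), for the Zfp genes (purple) and all genes tested (grey), with the number of genes above each bar. The purple bar is the lower of each pair, and the gap is narrowest between 20 and 50 CPM.

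Zfp467 rose the most. It lies at chromosome 6, 48427697 to 48445825, on the minus strand, has 12 fingers and no KRAB pattern, and is known as a factor that steers mesenchymal precursors towards fat or bone. Its level was 16.6, 22.4, 19.4 and 21.4 CPM in Xbp1fl mature libraries and 20.3, 15.6, 27.2 and 17.8 CPM in Xbp1flIre1fl mature libraries. In immature libraries it was 3.18, 3.14, 3.20 and 3.01 CPM in Xbp1fl and 3.41, 3.98, 3.8 and 3.74 CPM in Xbp1flIre1fl. Every mature library thus stood far above every immature one, and the immature libraries lay close together. The means were 20.1 ± 3.71 and 3.43 ± 0.360 CPM (SD, n = 8 each), a log2 fold change of 2.55 ± 0.11 (SE) or 5.86-fold, with an edgeR adjusted p of 1.21e-11.

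The other members with the largest rises and no overlap ran from 1.33 to 0.85 on the log2 scale. Zfp296, a partner of chromatin remodellers in stem cells, had a median of 15.4 CPM in mature libraries (9.27 to 21.2) against 6.14 CPM in immature ones (4.42 to 7.45). Zfp189, a KRAB member with 16 fingers, had 7.75 CPM (6.40 to 12.6) against 3.45 CPM (2.59 to 3.96). Zfp46, also with a KRAB pattern, had 22.9 CPM (16.3 to 36.9) against 11 CPM (8.34 to 13.9). In all of these the lowest mature library stood above the highest immature one. Zfp217, a repressor that works with CtBP and histone deacetylases, had a median of 40.2 CPM in mature libraries (30.8 to 50.8) against 18.5 CPM (14.9 to 21.9), a log2 fold change of 1.16 ± 0.11 (SE) with an adjusted p of 3.57e-08. Zfp513 had 70.2 CPM (49.1 to 80.1) against 32.5 CPM (28.5 to 36.6), and Zfp524 had 16.9 CPM (13 to 20.3) against 9.08 CPM (7.57 to 11.9). The last 2 are uncertain as to gene: exons of Zfp513 overlap Snx17 on the opposite strand, and Zfp524 shares 51.7% of its 50-base runs with other genes, most with an overlapping gene model. Exons of Zfp296, and among the other named members those of Zfp710, Zfp367, Zfp706, Zfp687, Zfp703, Zfp608, Zfp704, Zfp106, Zfp532, Zfp507, Zfp593, Zfp553, Zfp775, Zfp142, Zfp777, Zfp511 and Zfp184, also overlap a gene on the opposite strand. Those of Zfp91, Zfp775, Zfp783, Zfp956 and Zfp935 overlap a gene on the same strand. Reads of such pairs cannot be told apart without the strand setting, and 88 of the 275 members have an exon overlap of this or the same-strand kind.

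The remaining members over 2-fold overlapped between the stages or were of low level. Zfp951 rose by 1.44 ± 0.11 (SE) on the log2 scale and is described with the genotypes. Zfp831 rose by 1.72 ± 0.38, from 0.787 ± 0.687 to 2.50 ± 1.13 CPM (SD, n = 8), Zfp507 by 1.32 ± 0.36, from 0.652 ± 0.344 to 1.67 ± 0.978 CPM, and Zfp691 by 1.01 ± 0.33, from 0.355 ± 0.230 to 0.698 ± 0.186 CPM. These 3 were named after their values were seen, as the rest of the members over 2-fold. Zfp507 shares 27.5% of its 50-base runs with other genes, most with an overlapping model on the opposite strand.

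**Figure D3:**
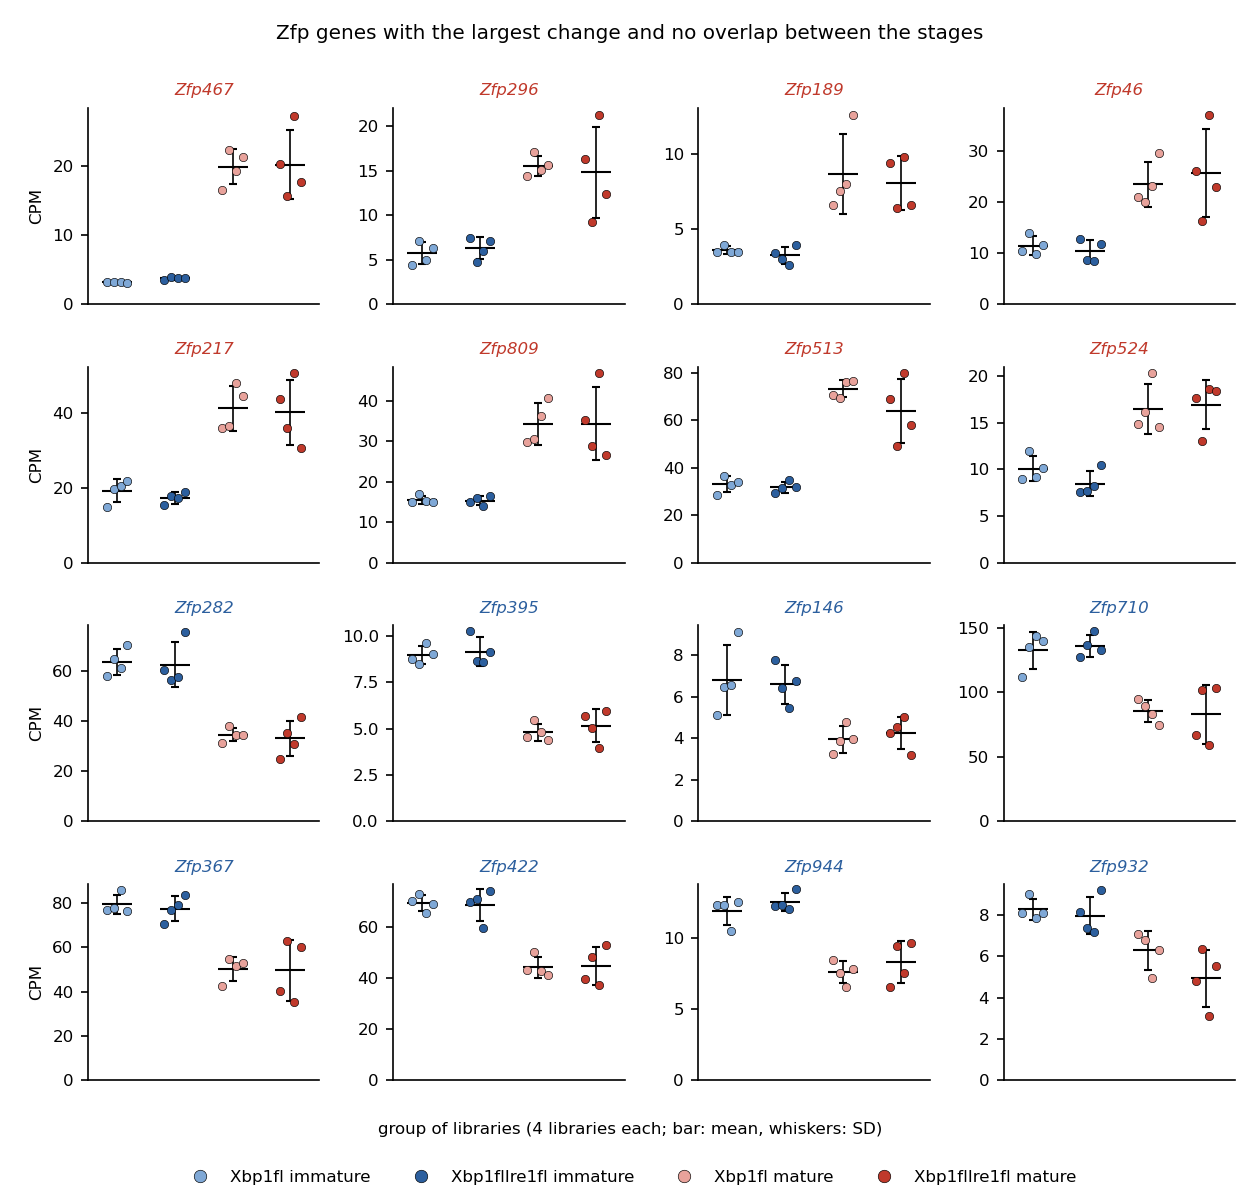
CPM of 16 Zfp genes in each library (points), with the mean (bar) and SD (whiskers) of each group of 4 libraries, and the 4 groups side by side in every panel. The upper 8 panels show members that rose and the lower 8 members that fell, and in each panel the blue (immature) and red (mature) points do not overlap.

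The largest falls were smaller than the largest rises. Of 26 called falls at least as large as that of Zfp932 (-0.54), the stages overlapped in 18, among them Zfp558 (-0.98), Zfp53 (-0.88) and Zfp760 (-0.86), which were named after their values were seen. The 8 without overlap are described here. Zfp282, which has 5 fingers and a KRAB pattern and whose human counterpart represses a retroviral promoter, lies on the same chromosome as Zfp467 at 47877204 to 47908485, plus strand. It stood at 31.3, 37.9, 34.4 and 34.3 CPM in Xbp1fl mature and at 25, 35.2, 30.9 and 41.3 CPM in Xbp1flIre1fl mature libraries. In immature libraries it was 57.7, 64.5, 61.2 and 70.1 CPM in Xbp1fl and 60.1, 56.4, 57.5 and 75.5 CPM in Xbp1flIre1fl. All mature libraries were below all immature ones. The means were 33.8 ± 4.90 and 62.9 ± 6.77 CPM (SD, n = 8 each), a log2 fold change of -0.90 ± 0.09 (SE) with an edgeR adjusted p of 1.07e-07.

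Zfp395, with a single finger by the pattern, had a median of 4.92 CPM in mature libraries (3.93 to 5.92) against 8.89 CPM in immature ones (8.50 to 10.2). Zfp146, a protein made of little but fingers, had 4.10 CPM (3.21 to 5.01) against 6.52 CPM (5.10 to 9.15), where the stages nearly met. Zfp710 had 86.4 CPM (59.3 to 103) against 136 CPM (112 to 148). The groups did not overlap in these 3. Zfp367 had 52.2 CPM (35.2 to 63.0) against 77.4 CPM (70.4 to 86.1). Zfp422 had 43.0 CPM (37.5 to 53.2) against 70.1 CPM (59.6 to 74.2), and shares 24.0% of its 50-base runs with other genes. Their log2 fold changes ran from -0.86 (Zfp395) over -0.71 (Zfp146), -0.67 (Zfp710) and -0.65 (Zfp367) to -0.63 (Zfp422). Last of these 8 were the 2 KRAB members Zfp944 and Zfp932 at -0.62 ± 0.09 and -0.54 ± 0.12 (SE), and Zfp932 shares 55.5% of its 50-base runs with other genes, most with Gm15446.

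Some members differed little between the stages under TMM scaling, with small SEs. Zfp638, a nuclear protein that silences unintegrated retroviral DNA, had 59.6 ± 6.97 CPM (SD, n = 8) in mature libraries and 59.6 ± 5.87 CPM (n = 8) in immature ones, a log2 fold change of -0.00 ± 0.07 (SE). Zfp839, Zfp777 and Zfp511 had log2 fold changes of -0.01, -0.01 and -0.02, with SEs of 0.09 each. With library sizes alone these 4 were called lower, at -0.22 (Zfp638), -0.23 (Zfp839), -0.23 (Zfp777) and -0.25 (Zfp511). Their edgeR adjusted p then lay between 0.00894 and 0.0494, so that their steadiness depended on the scaling. Of all 271 members, 119 lay within 1.2-fold of no change (43.9%, against 36.9% of all genes), and 49 were called and over 1.5-fold, 26 upward and 23 downward (18.1%, against 29.8%).

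Of the members most abundant per length, Zfp706 fell and Zfp366 and Zfp869 rose, all by less than 1.5-fold. Zfp706 had a median of 188 CPM in mature libraries (176 to 211) against 259 CPM in immature ones (246 to 273), with no overlap. Zfp366 had 230 CPM (203 to 275) against 195 CPM (168 to 220), a log2 fold change of 0.29 ± 0.06 (SE) with an adjusted p of 5.61e-04, and the groups overlapped. With library sizes alone its log2 fold change was 0.06 and no longer passed. Zfp869 rose by 0.22 ± 0.07, a call lost under upper quartile scaling (0.09) and turned in sign with library sizes alone (-0.01). Zfp207, a spindle and splicing factor, and Zfp263 did not pass, at -0.02 ± 0.05 and -0.19 ± 0.08. Each of them passed with upper quartile scaling and with library sizes alone in edgeR. Zfp207 was then at -0.14 and -0.24, and Zfp263 at -0.31 and -0.41. Zfp263 also passed without Xbp1fl mature replicate 1 (-0.22), Xbp1fl immature replicate 4 (-0.22), Xbp1flIre1fl mature replicate 2 (-0.27) or Xbp1flIre1fl immature replicate 4 (-0.21).

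The members were then split by the KRAB pattern. Of 141 KRAB members tested, 23 rose and 29 fell (36.9% called, against 67.6% of all genes tested), with a median log2 fold change of -0.10 and a median level of 4.56 CPM. Of 128 members tested without the pattern, 42 rose and 31 fell (57.0% called), with a median of 0.04 and 12.5 CPM. Under upper quartile scaling 13 KRAB members rose and 45 fell (41.1%), against 31 and 44 of the others (58.6%) and 70.5% of all genes called. With library sizes alone it was 10 and 56 (46.8%) against 21 and 56 (60.2%), and 73.5% of all genes. Split by level, 22.7% of 75 KRAB members and 36.1% of 36 others were called under 5 CPM, and 45.3% of 53 and 66.7% of 48 between 5 and 20 CPM. From 20 CPM upward it was 84.6% of 13 KRAB members and 63.6% of 44 others. By number of fingers, 65.7% of 35 members with 0 to 3 fingers were called at a median level of 15.4 CPM, and 34.7% of 72 with 14 or more at 4.46 CPM. These shares are counts over members and were not tested.

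Among members listed as linked with retroelements or imprints, all 5 tested passed, 3 upward and 2 downward, where 67.6% of all genes tested did. The list does not hold Zfp638, which did not pass, or Zfp282, which fell. Above, a retroviral role was given for Zfp638 and for the human counterpart of Zfp282, so the count depends on the choice of list. Zfp809, which brings TRIM28 to murine leukaemia proviruses in stem cells, had 29.7, 30.5, 36.3 and 40.7 CPM in Xbp1fl mature libraries and 35.4, 28.9, 46.8 and 26.5 CPM in Xbp1flIre1fl mature libraries. In immature libraries it ranged from 14 to 17.1 CPM with a median of 15.2 CPM. Every mature library was higher than every immature one, and the log2 fold change was 1.15 ± 0.10 (SE) with an edgeR adjusted p of 2.86e-08. Zfp568, a repressor of a placental Igf2 transcript, rose by 0.66 ± 0.12, from 10.5 ± 1.38 to 16.7 ± 3.20 CPM (SD, n = 8). Zfp445, a guardian of imprints, was at 0.17 ± 0.07 with an adjusted p of 0.047, and lost its call under upper quartile scaling (0.05), with library sizes alone (-0.05), without the filter on low counts (0.16), in limma (0.16) and without any 1 of 12 of the 16 libraries (0.13 to 0.18, adjusted p of 0.0527 to 0.12). Zfp932 fell, as given above, and Zfp266 fell by 0.39 on the log2 scale (SE 0.10), from 21.6 ± 2.43 to 16.5 ± 2.79 CPM. Their list median was 0.17, against -0.01 over all genes tested. With either upper quartile scaling or library sizes alone 2 rose and 2 fell (80.0% called, against 70.5% and 73.5% of all genes).

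The machinery that KRAB proteins recruit was taken as a list of 26 genes outside the family. Of these, 9 rose, 9 fell and 8 did not pass, with a median log2 fold change of -0.09. That is 69.2% called, near the 67.6% of all genes tested. Trim28 itself fell from 143 ± 6.48 to 98.7 ± 11.5 CPM (SD, n = 8), a log2 fold change of -0.53 ± 0.06 (SE), and Setdb1 from 52.5 ± 3.22 to 37.2 ± 4.65 CPM, a change of -0.50 ± 0.07. Both had no overlap between the stages. The heterochromatin gene Cbx5 (-0.67 ± 0.09), the maintenance methyltransferase Dnmt1 (-0.45 ± 0.06) and Morc2a, a HUSH-associated ATPase (-0.72 ± 0.07), fell as well. Atf7ip, the partner that stabilises SETDB1, rose from 60.3 ± 3.98 to 141 ± 26.8 CPM (log2 fold change 1.23 ± 0.10), and Trim24, a relative of Trim28, from 14.6 ± 1.08 to 35.9 ± 8.29 CPM (1.30 ± 0.12). These 7 genes were called with the same sign under upper quartile scaling, with library sizes alone and in DESeq2. The list as a whole shifted, with 3 higher and 14 lower under upper quartile scaling and 3 and 15 with library sizes alone.

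Members with roles in lymphocytes or myeloid cells were divided: of 8 tested, 3 rose, 2 fell and 3 did not pass (list median 0.06), so that 62.5% were called, near the 67.6% of all genes tested. With library sizes alone 2 rose and 4 fell. Zfp318, which B cells need to make IgD by alternative processing, rose from a median of 22.4 CPM (19.3 to 23.8) to 34.4 CPM (27.9 to 40.7), with no overlap and a log2 fold change of 0.65 ± 0.07 (SE). The B cell markers rose beside it, as given above, and their part was not tested. Zfp281 rose by 0.69 ± 0.09 from 26.9 CPM (24.1 to 28.7) to 43.5 CPM (31.1 to 52.8), again without overlap. Zfp148, a factor that binds GC-rich promoters, rose by 0.27 ± 0.06, with overlap, and fell short of the threshold with library sizes alone (0.04). Zfp64 fell by 0.38 on the log2 scale (SE 0.09) and Zfp91, a ubiquitin ligase, by 0.17 (SE 0.06).

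Of the members that act on RNA or ribosomes, 4 of 9 rose, 3 fell and 2 did not pass (list median -0.00), or 77.8% called against 67.6% of all genes tested. The counts were 3 and 4 under upper quartile scaling (77.8% called, against 70.5% of all genes). They were 3 and 5 with library sizes alone (88.9%, against 73.5%). Zfp622, a factor of large ribosomal subunit maturation, rose from 73.4 ± 6.12 to 98.8 ± 8.38 CPM (SD, n = 8), a log2 fold change of 0.43 ± 0.06 (SE) with no overlap. Zfp593, which acts in the same process, fell from 17.7 ± 1.81 to 13.1 ± 1.33 CPM (-0.43 ± 0.07), also with no overlap, although it shares 64.5% of its 50-base runs with other genes, most with an overlapping one on the opposite strand. Zfp598, the ubiquitin ligase that marks collided ribosomes, rose by 0.49 ± 0.08, and Zfp106 fell by 0.19 on the log2 scale (SE 0.05), although it shares 25.2% of its 50-base runs with other genes, most with an overlapping model on the opposite strand. Zfp318 also stands in this list.

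Among members linked with chromatin, repair or division, 6 of 13 rose, 1 fell and 6 did not pass (list median 0.20), or 53.8% called against 67.6% of all genes tested, 33.4% of which rose and 34.2% fell. Under upper quartile scaling 4 rose and 3 fell (53.8% called, against 70.5% of all genes), and with library sizes alone 2 and 3 (38.5%, against 73.5%). Zfp687 rose from 25.9 ± 2.32 to 39.1 ± 5.52 CPM, a log2 fold change of 0.59 ± 0.08 (SE), whereas its known complex partners Zfp592 and Zfp532 did not pass, at 0.10 ± 0.06 and 0.46 ± 0.31, and Zfp532 shares 43.0% of its 50-base runs with other genes. Zfp451, a SUMO ligase, rose by 0.36 ± 0.07, a call lost with library sizes alone (0.13). The member that fell was Zfp367 (-0.65 ± 0.10), beside the fall of all 20 cell cycle genes, whose part in it was not tested. Of the members with roles in development, 5 of 8 rose, 1 fell and 2 did not pass (list median 0.24), or 75% called against the same 67.6%. With either of these scalings 3 rose and 2 fell (62.5% called, against 70.5% and 73.5% of all genes). Besides Zfp467 the 5 that rose were Zfp703 (0.64 ± 0.10, no overlap), Zfp608 (0.91 ± 0.18), Zfp609 (0.35 ± 0.11) and Zfp292 (0.12 ± 0.05). Zfp609 did not pass with either scaling (0.23 and 0.13), nor did Zfp292 (0.0011 and -0.10), which also lost its call without the filter on low counts (0.10) and without any 1 of 12 of the 16 libraries (0.09 to 0.13, adjusted p of 0.0537 to 0.119). Zfp704, a relative of Zfp395, fell by 0.65 on the log2 scale (SE 0.17).

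**Figure D4:**
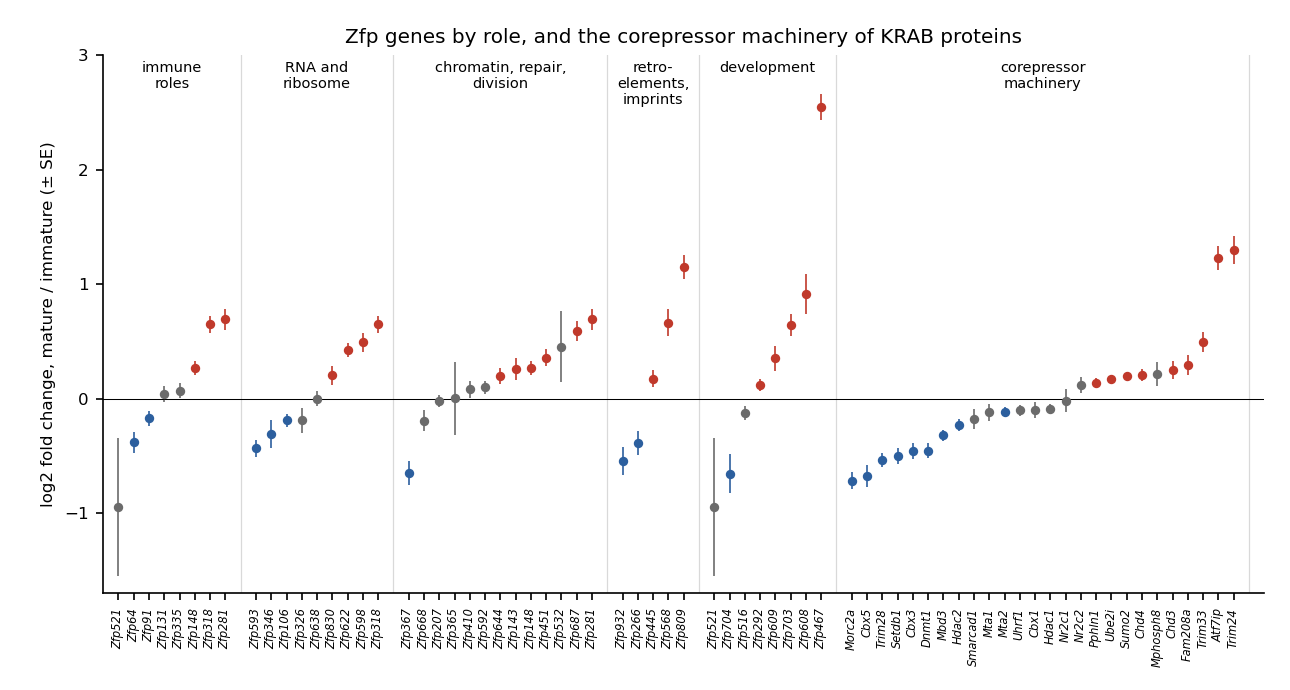
Log2 fold change between mature and immature cDC1s (vertical axis, points with SE) for the Zfp genes of 5 role lists and the 26 genes of the corepressor machinery, ordered by size within each list. Red points rose, blue points fell and grey points did not pass, and each list except the retroelement and imprint list holds all 3 kinds.

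Neighbouring members did not always share a direction. On chromosome 6, 9 tested members lie between 47835661 and 48623227. Zfp398 and Zfp282, 3667 bases apart, fell by 0.44 and 0.90 on the log2 scale, and Zfp783 fell by 0.54. Zfp746, Zfp467 and Zfp775 rose by 0.30, 2.55 and 0.38. Zfp212, Zfp956 and Zfp777 between them did not pass (0.08, -0.15 and -0.01). Over all chromosomes, 104 pairs of adjacent members lay within 100000 bases, and in 9 of them both were called (8.65%, against 46.9% of 9207 pairs of neighbouring genes tested). Of those 9 pairs, 8 moved the same way, Zfp553 and Zfp771 being the exception (-0.42 and 0.31). Over all genes tested, 61.3% of the 4316 pairs with both called moved the same way. With 9 pairs, some of which share sequence, the 2 shares were not tested against each other.

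Of the 275 members, 229 had a promoter in the RefSeq table (GRCm38.p6), taken as 250 bases before to 50 bases after the start. For 191 of these the 50 bases after the start were part of a GENCODE transcript of the gene in the same orientation. The promoters of 3 members are shown because their genes changed without overlap and their 250 bases before the start touch no annotated exon: Zfp467 (chr6:48445091-48445340, minus strand) and Zfp296 (chr7:19577037-19577286, plus strand), which rose, and Zfp710 (chr7:80024564-80024813, plus strand), which fell. They are written 5′ to 3′ towards the start, and the capitals in Zfp296 mark a match, on the reverse strand, to AGGTCA, the hexamer bound by many nuclear receptors. The window of Zfp467 lies inside the GENCODE span of the gene, whose 5′ end is at 48445825. It thus precedes a RefSeq start within that span, not the outermost annotated one.
Zfp467: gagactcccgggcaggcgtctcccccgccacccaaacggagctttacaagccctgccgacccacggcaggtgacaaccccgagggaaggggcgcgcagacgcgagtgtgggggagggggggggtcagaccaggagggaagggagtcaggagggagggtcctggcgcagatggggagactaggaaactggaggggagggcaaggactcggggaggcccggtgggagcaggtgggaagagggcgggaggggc
Zfp296: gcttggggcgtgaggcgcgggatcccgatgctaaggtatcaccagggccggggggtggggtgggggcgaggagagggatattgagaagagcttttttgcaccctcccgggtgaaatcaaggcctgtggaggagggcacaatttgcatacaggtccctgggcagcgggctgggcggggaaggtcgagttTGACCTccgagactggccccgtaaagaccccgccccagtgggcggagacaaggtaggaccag
Zfp710: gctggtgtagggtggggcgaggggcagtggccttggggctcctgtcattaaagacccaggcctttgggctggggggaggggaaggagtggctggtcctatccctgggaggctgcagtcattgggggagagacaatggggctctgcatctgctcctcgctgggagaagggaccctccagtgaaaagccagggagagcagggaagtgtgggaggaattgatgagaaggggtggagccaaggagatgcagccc

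Motifs, 5 in all, were searched on both strands of the 300 bases: AGGTCA, the ETS motif CCGGAAG, the AP-1 motif TGANTCA, the NF-kB consensus and the TATA box TATAAA. The nuclear receptor hexamer was found in 13.5% of the 229 members, in 17.3% of the 52 that rose and 16% of the 50 that fell, against 14.7% of 9209 genes tested. The ETS motif was found in 24.0% of members, 30.8% of those that rose and 22.0% of those that fell, against 20.7% of genes tested. The AP-1 motif was found in 5.24%, 5.77% and 6.0%, against 6.14%, and the NF-kB consensus in 3.49%, 3.85% and 4.0%, against 6.39%. The TATA box was found in 7.86% of members and 8.52% of genes tested. By the patterns as searched, the 250 bases shown for Zfp467 and Zfp710 hold no match to any of the 5. The letters of the NF-kB pattern are not given here, and a looser form of that consensus could match. These are shares of promoters with the letters, a description and not a sign of binding.

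The next comparison asks whether the change with stage depended on genotype. Within Xbp1fl, 45 members rose and 42 fell (32.1% called, against 56.8% of all genes tested), and within Xbp1flIre1fl 45 rose and 33 fell (28.8%, against 53.5%). With upper quartile scaling the counts were 35 and 60 in Xbp1fl and 29 and 62 in Xbp1flIre1fl, and with library sizes alone 27 and 91, and 23 and 81. Without Xbp1flIre1fl mature replicate 3, 29 members were called higher in that genotype. The share of all genes called within a genotype is not given for these other fits. Their counts therefore cannot tell a shift of the members from a shift of all genes. Both genotypes called 55 members, all with the same sign, which is 63.2% of the 87 called in Xbp1fl and 70.5% of the 78 called in Xbp1flIre1fl. Over the 271 members, Pearson's r between the log2 fold changes of the 2 genotypes was 0.75, against 0.94 over all genes tested, where the members are of lower level. This r is a description across genes, which share libraries. Zfp467 rose by 2.67 ± 0.16 and 2.43 ± 0.16 (SE), and Zfp282 fell by 0.88 and 0.91 on the log2 scale (SE 0.13 each). No member, and no gene in the table, was called for the interaction of stage and genotype (0.0% of all genes tested). At an unadjusted p under 0.05 there were 7 of 271 members and 329 of 11978 genes, and DESeq2 and limma also called 0 members.

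Between the genotypes 1 member, Zfp951, differed in both stages and was lower in Xbp1flIre1fl. That is 1 of 271 members in immature cells (0.369%, against 0.134% of all genes tested) and the same in mature cells (against 0.142%), with 11 and 12 members at an unadjusted p under 0.05. Zfp951 is a KRAB member with 10 fingers on chromosome 5, 104813169 to 104860070, minus strand, and shares 1.16% of its 50-base runs with other genes. In immature cells it stood at 6.18, 9.43, 6.80 and 6.46 CPM in Xbp1fl and at 2.98, 3.25, 3.62 and 4.24 CPM in Xbp1flIre1fl libraries. In mature cells it stood at 17.7, 17.6, 21.1 and 21.0 CPM in Xbp1fl and at 10.4, 8.92, 11.6 and 8.0 CPM in Xbp1flIre1fl libraries. The genotypes did not overlap in either stage, whereas the mature Xbp1flIre1fl libraries reached down into the range of the immature Xbp1fl ones.

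For Zfp951 the log2 difference of Xbp1flIre1fl from Xbp1fl was -1.03 ± 0.17 (SE) in immature cells, with an edgeR adjusted p of 0.00789, and -0.99 ± 0.15 in mature cells, with an adjusted p of 0.00406. Without Xbp1flIre1fl immature replicate 2 the first was -0.99 with an adjusted p of 0.0535. Over all alternatives the adjusted p lay between 2.12e-05 and 0.0535 in immature and between 7.13e-07 and 0.0318 in mature cells. Within each genotype Zfp951 rose with stage by a like amount, 1.42 ± 0.15 in Xbp1fl and 1.46 ± 0.17 in Xbp1flIre1fl, and the interaction was 0.04 ± 0.22 (adjusted p of 1.0). The means were 7.22 ± 1.5 and 19.4 ± 1.97 CPM in immature and mature Xbp1fl cells, and 3.52 ± 0.546 and 9.76 ± 1.61 CPM in Xbp1flIre1fl cells (SD, n = 4 each). The labels do not say how the mice were bred, and the floxed allele, its genetic background and a batch of mice cannot be told apart here.

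**Figure D5:**
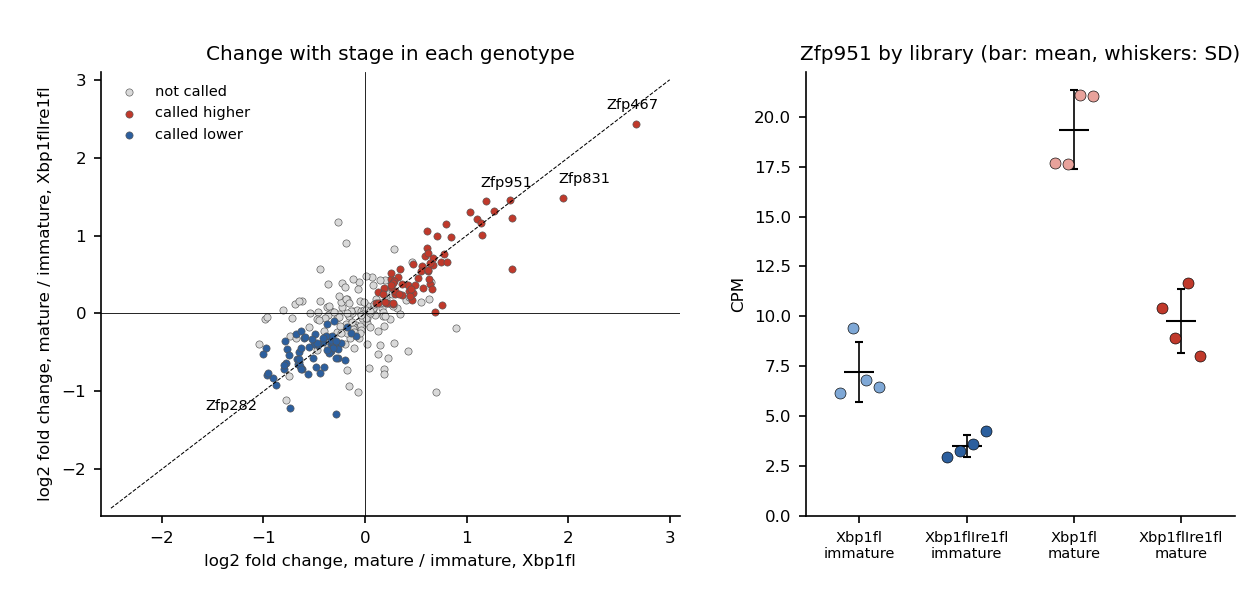
Left, log2 fold change between stages in Xbp1flIre1fl (vertical axis) against that in Xbp1fl (horizontal axis) for 271 Zfp genes, coloured by their call in the mean of both genotypes, with a dashed line where the values are equal. Right, CPM of Zfp951 in each library (points) with the mean (bar) and SD (whiskers) of each group of 4, where the Xbp1flIre1fl points lie below the Xbp1fl points of the same stage.

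The spread between libraries sets what could be seen. Over members of at least 5 CPM, the median coefficient of variation between the 4 libraries of a group was 10.1% in Xbp1fl immature, 11.9% in Xbp1fl mature, 12.2% in Xbp1flIre1fl immature and 16% in Xbp1flIre1fl mature cells. Apart from this spread, 43 members share over 20% of their 50-base runs with other genes, of the family or not, so that their counts depend on how shared reads were treated. Of the 42 of these that were tested, 15 were called (35.7%, against 67.6% of all genes tested).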

How the data were processed

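Bulk RNA-seq libraries of sorted mouse splenic cDC1s were grouped by the labels into 4 groups of 4. TopHat2 2.1.0 on the build mm10, Trimmomatic 0.35, FastQC 0.11.4, limma 3.42.2 and SAMtools 0.1.19 stand in the submitters' processing notes, while the read counter, annotation, strand setting and treatment of shared reads are not given in the sources used here. The authors deposited whole-number counts per gene symbol, which were the main data. Their deposited log2 table, of normalized values, served to choose the members and as an alternative.

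Counts were filtered with filterByExpr, scaled by TMM and fitted in R 4.3.3 with edgeR 4.0.16, as 1 mean per group over all 16 libraries (12 residual degrees of freedom) with robust quasi-likelihood tests. Benjamini-Hochberg adjustment ran over all 11978 genes tested, and calls are at an adjusted p under 0.05. SEs were taken from F, as the size of the log2 fold change over its square root. On simulated counts for the comparison of the stages (11852 genes), the test called 98.995% of genes changed 2-fold and 0.103% of unchanged ones. The simulation gave every gene the same dispersion and changed 199 of the genes tested. Its shares therefore do not give the power or the false calls for genes of low level or for noisier groups. Levels are TMM-scaled CPM, and floors cover counting error only. Libraries of a group differed beyond sampling noise in every pair (chi-square over its degrees of freedom, 5.56 to 64.7).

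Members, role lists and tests were chosen with earlier results of these data known. Named were the 8 largest changes in each direction among called members of at least 2 CPM in the higher stage without overlap, the 6 highest per length, the 3 smallest adjusted p of each role list, up to 5 of the genotype contrasts, the 4 steadiest above 10 CPM, members at the filter's edge, and 6 corepressor genes of smallest adjusted p with Trim28 and Setdb1. Other names were chosen after their values were seen. Fingers and KRAB patterns were searched in translated GENCODE M21 transcripts, and shared sequence as 50-base runs in transcripts of other genes. Alternatives were upper quartile scaling, library sizes alone, no low-count filter, a mean of at least 1 CPM, no robust estimation, a replicate block, limma 3.58.1 on the deposited log2 values, DESeq2 1.42.0, each library left out, and, added after seeing the data, the 2 mature Xbp1flIre1fl libraries of lowest Ccr7 left out.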

Additional observations from a re-analysis of the deposited data

Results flagged for a closer look

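Among the 38 named members, 152 groups of 4 libraries were checked for a library far from the other 3, and 7 were found; chance flags about 1 in 20 groups. In Xbp1fl immature replicate 2, Zfp189 stood at 3.96 CPM (3.44 to 3.48 CPM in the others) and Zfp809 at 17.1 CPM (15 to 15.3 CPM). In Xbp1fl immature replicate 3, Zfp367 stood at 86.1 CPM (76.6 to 77.8 CPM in the others) and Zfp944 at 10.5 CPM (12.3 to 12.6 CPM). Among the Xbp1fl mature libraries, Zfp148 stood at 88.8 CPM in replicate 4 (73.4 to 75.1 CPM in the others), and Zfp777 at 14.5 CPM in replicate 3 (21.9 to 23.0 CPM). Zfp184, near the filter on low counts, stood at 0.681 CPM in Xbp1flIre1fl mature replicate 2 and at 0.126 to 0.154 CPM in the other 3 libraries.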

How the results depend on the processing

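With library sizes alone, 31 members were called higher and 113 lower in mature cells, 27 and 91 within Xbp1fl, and 23 and 81 within Xbp1flIre1fl. Upper quartile scaling gave 29 and 62 within Xbp1flIre1fl. The members' median log2 fold change was -0.16 with upper quartile scaling and -0.26 with library sizes alone. In the mean of both genotypes, upper quartile scaling moved the median of all genes by -0.12 and library sizes alone by -0.22. With each library left out in turn, 60 to 69 members were called higher and 54 to 67 lower, with a median of -0.08 to -0.02. The counts were 39 to 48 and 33 to 44 within Xbp1fl, and 29 to 54 and 28 to 47 within Xbp1flIre1fl, lowest for higher calls without Xbp1flIre1fl mature replicate 3. Of the genotype contrasts, 0 to 1 member was called lower in immature cells, 0 without Xbp1flIre1fl immature replicate 2, where the cause was not tested. Without the 2 mature libraries of lowest Ccr7, 64 members were higher and 65 lower. The share of all genes called is not given for fits with libraries left out or with the replicate block. Nor is it given within a genotype under another scaling. These counts therefore cannot tell a shift of the members from a shift of all genes.

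Whether replicate numbers pair the libraries is not in the labels, and the main fit did not pair them. Same-numbered pairs from different groups had a median correlation of 0.11 (-0.18 to 0.56), with 12 of 24 over 0.1. For pairs of different number the median was -0.08 (-0.42 to 0.42), with 17 of 72 over 0.1. Of the 16 libraries, 14 matched their own number best. The data thus hint at something shared by libraries of the same number, and what that is was not tested. The replicate block gave 65 members higher and 67 lower, 48 and 45 within Xbp1fl, and 47 and 42 within Xbp1flIre1fl, and changed no named call except those of Zfp263, which passed, and Zfp292 (0.121, adjusted p of 0.0573), which did not.

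Among the 38 members named by the rule the sign turned for Zfp869 (-0.0110 with library sizes alone) and for 5 members that did not pass in the main fit. With library sizes alone it also turned for Zfp445 (-0.0506) and Zfp292 (-0.103). Zfp638 was 0.00729 with a mean of at least 1 CPM, 0.000176 in limma and 0.0117 in DESeq2, where Zfp839 and Zfp777 were 0.0030 and 0.00124. With 1 library left out, Zfp638 ranged from -0.0487 to 0.0430, Zfp839 from -0.0539 to 0.0344, Zfp777 from -0.0587 to 0.0549, Zfp511 from -0.0731 to 0.0117 and Zfp184 from -0.634 to 0.0045. Under 1 CPM the median SE on the log2 scale was 0.35 for members and 0.37 for all genes, the highest of the 5 bands of level.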
